A study of Mus musculus with 10 samples.

Results

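The 9 genes described here were grouped under bicarbonate and water secretion by bile duct epithelium. They include the secretin receptor Sctr, the adenylyl cyclase Adcy6, the chloride channels Cftr and Ano1 and the phospholipid scramblase Ano6, which also conducts ions. The others are the calcium-release channels Itpr2 and Itpr3, the chloride/bicarbonate exchanger Slc4a2 and the water channel Aqp1. All 9 were taken by symbol from a table of 18407 genes, and each had a row. The libraries came from NMC cells, a line of normal mouse cholangiocytes, grown for 6 days as 3D double spheroids, with no other treatment. In 5 libraries the matrix was collagen I at 1 mg/mL, and in 5 it was laminin-rich, with laminin and collagen I mixed 3 to 1 by volume. Both groups thus hold collagen I, every library comes from the same line, and how the cultures were divided into replicates is not stated, so the spread between them may be technical.

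Cholangiocytes turn the bile made by hepatocytes more alkaline and more dilute. Secretin acts on its receptor to raise cyclic AMP, protein kinase A opens CFTR in the apical membrane, and the chloride that leaves is taken back by the exchanger AE2 (Slc4a2) in return for bicarbonate. A parallel route starts with extracellular ATP or acetylcholine, whose receptors make inositol trisphosphate, which releases calcium through the receptors encoded by the Itpr genes and opens the calcium-activated chloride channel TMEM16A (Ano1). Water follows the ions through aquaporins.

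Library totals ran from 4424725 to 8129979 counts, and even the most similar pair differed beyond counting noise (chi-square per degree of freedom 3.32). Of 15 cholangiocyte markers 11 had a mean of at least 1 CPM (counts scaled to TMM-adjusted library totals), led by Krt8, Krt19 and Krt18. Krt7 averaged 6.80 ± 3.98 CPM in collagen against 3.33 ± 1.62 in laminin (SD, n = 5 per group), and Cldn4, Cldn7, Prom1 and Onecut1 averaged below 1 CPM. Hepatocyte markers summed to 88.7 to 137 CPM in the collagen libraries and 136 to 185 CPM in the laminin libraries, with 4 of 12 at a mean of 1 CPM or more and Cyp3a11, Cyp2e1 and Ass1 at 0. The 8 endothelial markers summed to 1.78 to 4.07 and 0.979 to 1.92 CPM, led by Eng, with 3 of the 8 (Cdh5, Kdr and Emcn) at 0. Leukocyte markers summed to 4.37 to 8.54 and 3.99 to 7.04 CPM and fibroblast and stellate markers to 26.4 to 34.4 and 24.4 to 57.3 CPM. Within this last sum single genes differed in opposite directions. Pdgfrb averaged 0.62 ± 0.151 CPM in collagen against 3.43 ± 1.88 in laminin, and Dcn 8.09 ± 1.26 against 3.47 ± 1.18. The libraries also differed in how levels followed transcript length, with slopes from -0.371 to 0.183 log2 units per doubling of length in collagen and from -0.115 to 0.163 in laminin.

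Ano1, Ano6, Itpr3 and Slc4a2 had mean levels of 133 CPM or more in both matrices, whereas the secretin receptor Sctr and the channel Cftr were at or near 0. No gene of the 9 passed the test between the matrices. Of the 7 that had enough counts to be tested, 0 were called higher and 0 lower at an adjusted p below 0.05 in edgeR's quasi-likelihood test, against 0.139% and 0.00927% of all 10789 genes tested (0.148% in either direction). At an unadjusted p under 0.05 there were 4, all higher in laminin (Adcy6, Aqp1, Itpr3 and Ano6), against 6.68% of all genes higher and 11.6% in either direction. DESeq2 called 1 higher, Adcy6, against 1.38% of all genes, and limma-voom 0. Without the 3 collagen libraries of code letter B, edgeR called 2 higher, Adcy6 and Itpr3, where 11.2% of all genes were higher and 19.3% were called in either direction. All 7 had a log2 fold change above 0 (laminin-rich matrix minus collagen I), as did 51.7% of all genes tested, with a median of 0.36 against 0.009 over all genes. These 7 do not count as independent cases. Of the 7, 6 have a transcript longer than the median of 3487 nt, and levels in these libraries followed length as given above. After correction of each library for a trend with length and GC content, their median was 0.22, and 3 of the 7 (Adcy6, Aqp1 and Ano6) were under an unadjusted 0.05, against 15.2% of all genes. In a bulk sample, fewer cells of a type and less RNA per cell cannot be told apart.

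**Figure D1:**
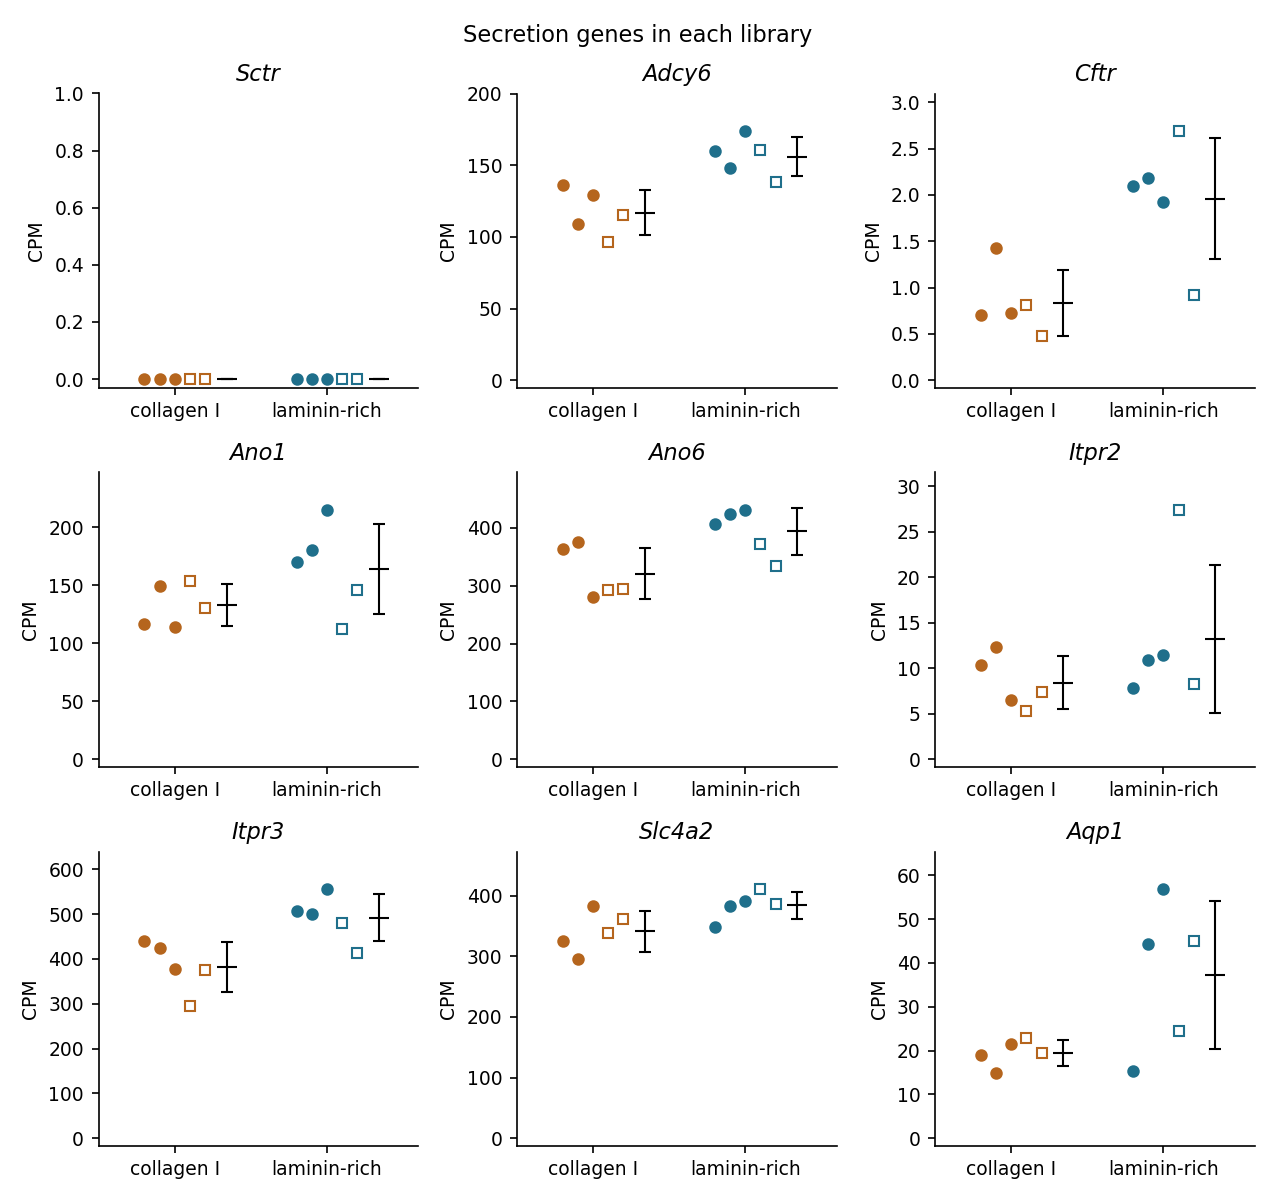
CPM of each of the 9 genes in every library (linear axes from 0), collagen I in brown and the laminin-rich matrix in blue. Filled circles are libraries of code letter B (collagen) or E (laminin), open squares those of letter D or F, and the bars give the mean ± SD of 5. Adcy6 is the gene whose 5 laminin libraries all lie above its 5 collagen libraries, and Sctr is at 0 in all 10.

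Sctr, the receptor through which secretin starts ductal secretion, had no read in any of the 10 libraries. In a single library a count of 0 allows up to 3 counts, or 0.364 to 0.690 CPM depending on the library, for counting error alone. Over all 10 libraries together the limit is lower. Of the 18407 genes in the table, 3984 had no count in any library. Other receptors that raise cyclic AMP were low as well. Vipr1, a receptor for vasoactive intestinal peptide, averaged 0.659 ± 0.444 CPM in collagen against 1.10 ± 0.824 CPM in laminin, and the bile acid receptor gene Gpbar1 averaged 0.271 ± 0.425 and 0.488 ± 0.409 CPM. Among these receptors the most counts fell on Ptger4, a prostaglandin E2 receptor.

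Adcy6, an adenylyl cyclase that makes cyclic AMP, was well covered in every library. In collagen it stood at 136, 109, 129, 96.6 and 115 CPM in replicates 1 to 5, and in laminin at 160, 148, 174, 161 and 138 CPM. Every laminin library was above every collagen library, a separation seen in 1 of the 7 genes and, in this direction, in 1.94% of all genes tested (3.23% in either direction). The means were 117 ± 15.7 and 156 ± 13.6 CPM (SD, n = 5 per group), a 1.33-fold difference with a 95% interval of 1.13 to 1.57. On the log2 scale this was 0.41 (SE 0.11), and it did not pass over all genes (adjusted p = 0.178 in edgeR). DESeq2 did call it (0.40, adjusted p = 0.0337), among 1.94% of all genes tested. After the length and GC correction the difference was 0.22 (SE 0.07, adjusted p = 0.160 in edgeR).

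Among the other cyclases Adcy9 had the most counts, at 31.9 ± 6.41 CPM in collagen against 44.9 ± 6.28 in laminin, with a log2 difference of 0.49 (SE 0.15, adjusted p = 0.240 in edgeR). Per kilobase of its longest transcript, Adcy6 stood at 22.6 RPKM over the 10 libraries and Adcy9 at 7.72 RPKM. Adcy2, Adcy8 and Adcy10 had no count, and Adcy4 and Adcy5 had 4 and 1 counts in all. The profile of Adcy6 across the 10 libraries was set beside that of every other tested gene by the mean absolute difference of centred log2 CPM, for which a median gene gave 0.287. The nearest 3 genes were Taok2 (0.0495), Lars2 (0.0585) and Ppp1r3f (0.0656), and Itpr3 was the 18th nearest (0.0810).

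Cftr, the cyclic AMP-regulated apical channel for chloride and bicarbonate, was barely detected. It had 5, 8, 6, 4 and 3 counts in the collagen libraries and 15, 12, 12, 18 and 4 in the laminin libraries, 26 against 61 in all. That is 0.831 ± 0.355 and 1.96 ± 0.650 CPM (SD, n = 5 per group), and 4 of 5 laminin libraries were above every collagen library, with laminin replicate 5 at 0.921 CPM inside the collagen range of 0.481 to 1.43 CPM. These counts fell below the filter, so Cftr is not among the 7 genes tested. When the filter was dropped, the log2 difference was 1.25 (SE 0.36) and did not pass (adjusted p = 0.226 in edgeR, where 0.201% of 14423 genes were called). With genes kept at 1 CPM in 5 libraries it was 1.26 (adjusted p = 0.198 in edgeR).

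The start of Cftr is shown as the gene of the set with the fewest reads among those detected. The RefSeq window (GRCm38.p6, chr6:18170437-18170736, plus strand, 250 bases before to 50 after the start) has 31 CpG dinucleotides, against a median of 7 over all such windows. Capitals mark exact matches to the GC box GGGCGG and the CCAAT box CCAAT on either strand, where 3 of the GC boxes overlap.
Cftr: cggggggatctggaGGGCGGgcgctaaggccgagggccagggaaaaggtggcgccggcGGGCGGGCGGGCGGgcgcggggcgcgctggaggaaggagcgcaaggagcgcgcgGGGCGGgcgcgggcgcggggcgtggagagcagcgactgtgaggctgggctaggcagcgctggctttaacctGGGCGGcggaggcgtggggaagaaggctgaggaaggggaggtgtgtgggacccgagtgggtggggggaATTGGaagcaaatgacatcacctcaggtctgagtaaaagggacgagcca
GGGCGG occurred 6 times, from -236 to -67, and CCAAT once, at 2 on the minus strand, with the first base of the transcript as 1 and the base before it as -1. Over 32851 windows of the same length, 35.7% held GGGCGG and 37.4% CCAAT. The motifs TATAAA (13.6% of windows) and TGACGTCA, the palindromic cyclic AMP response element (1.79%), were also searched on both strands and not found. A match is a description of the letters and not a site, and these data do not measure binding.

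Ano1, the calcium-activated chloride channel TMEM16A, stood far above Cftr. It was at 117, 149, 114, 154 and 130 CPM in collagen and at 170, 180, 215, 112 and 146 CPM in laminin. Laminin replicates 1 to 3 were above every collagen library, and replicate 4 was the lowest of all 10. The means were 133 ± 18.1 and 164 ± 38.6 CPM (SD, n = 5 per group), a log2 difference of 0.31 (SE 0.16, 95% interval -0.04 to 0.66, adjusted p = 0.478 in edgeR). Within laminin, the 3 libraries of code letter E, whose meaning is not stated, averaged 188 CPM and the 2 of letter F 129 CPM. After the length and GC correction the difference was 0.23 (SE 0.16). Without the letter E libraries it was -0.07, and without laminin replicate 3 it was 0.17. No letter is shared by the matrices, so the effects of letter and matrix cannot be told apart.

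Ano6, which encodes TMEM16F, a calcium-activated phospholipid scramblase that also conducts ions, had more reads than Ano1 in every library. Its levels were 364, 375, 281, 292 and 294 CPM in collagen and 407, 424, 431, 372 and 334 CPM in laminin. Laminin replicates 4 and 5 lay inside the collagen range and the other 3 above it. The log2 difference was 0.29 (SE 0.12), or 1.23-fold with a 95% interval of 1.03 to 1.46, and did not pass (adjusted p = 0.344 in edgeR). Without the letter E libraries it was 0.11, and after the length and GC correction of all libraries 0.20 (SE 0.09).

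Per kilobase of the longest transcript, Ano6 exceeded Ano1 by 1.76 to 3.10 times in the 10 libraries. This gap depends on the length used. When all annotated exons were counted, Ano6 averaged 29.1 CPM per kilobase over the 10 libraries and Ano1 23.8. The ratio in each library was not computed with that length. The ratio of Ano6 to Ano1 within a library, which depends on library scaling only through the prior count, was 1.27 ± 0.26 in collagen and 1.28 ± 0.27 in laminin in log2 units of CPM (SD, n = 5; two-sided exact permutation p = 0.921, adjusted 0.921 over the 2 ratios tested, where the smallest p that 252 assignments can give is 0.00794). The ratio of Cftr to Ano1 was not tested because of the low counts of Cftr. Per kilobase, Ano1 exceeded Cftr by 146 to 378 times in the collagen libraries and by 57.9 to 222 times in the laminin libraries, so the ranges overlapped.

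**Figure D2:**
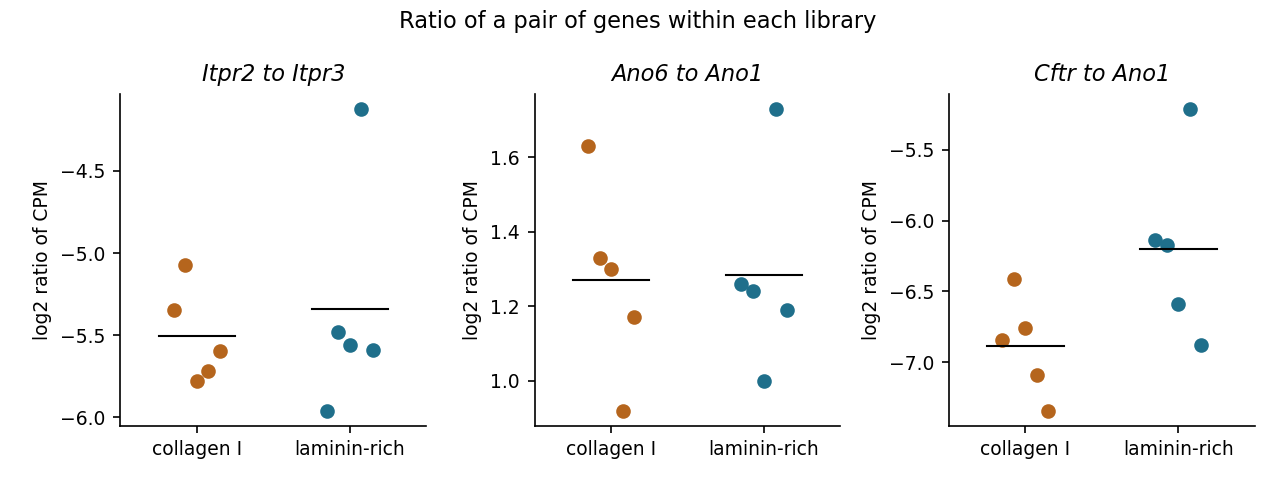
Log2 ratio of CPM of 2 genes within each library (prior count of 2), with a line at the group mean. Each panel has its own axis, which does not start at 0. The Itpr2 to Itpr3 and Ano6 to Ano1 ratios overlap between the matrices, and laminin replicate 4 is the highest library in all 3 panels.

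Of the 8 other TMEM16 genes only Ano8 and Ano10 were tested, at 49.4 ± 8.99 and 48.7 ± 8.92 CPM in collagen and 63.2 ± 6.26 and 42.5 ± 5.32 CPM in laminin. Ano9 had 51 counts in all, and Ano4, Ano5 and Ano7 had 0. Neither tested gene passed, with log2 differences of 0.35 (SE 0.14) for Ano8 and -0.19 (SE 0.14) for Ano10.

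Itpr3, the type 3 inositol trisphosphate receptor, which in cholangiocytes is known for its place below the apical membrane, had more counts than any other gene of the 9. It stood at 439, 425, 377, 295 and 374 CPM in collagen and at 507, 501, 556, 480 and 414 CPM in laminin. Laminin replicate 5 lay inside the collagen range and the other 4 above it. The means were 382 ± 56.3 and 492 ± 51.6 CPM (SD, n = 5 per group), a 1.29-fold difference with a 95% interval of 1.07 to 1.54. The log2 difference of 0.36 (SE 0.12) did not pass (adjusted p = 0.279 in edgeR). It was 0.06 (SE 0.08) after the length and GC correction, and the transcript is 8990 nt long. Without the laminin libraries of letter E it was 0.21.

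Itpr2, the type 2 receptor, was low, and its difference between matrices came mostly from a single library. It stood at 10.4, 12.3, 6.56, 5.29 and 7.37 CPM in collagen and at 7.83, 10.9, 11.5, 27.4 and 8.29 CPM in laminin. Laminin replicate 4, at 27.4 CPM, was the one laminin library above the collagen range. The log2 difference was 0.66 (SE 0.35, adjusted p = 0.494 in edgeR) with all libraries and 0.37 (SE 0.25) after the length and GC correction. Without that correction and without laminin replicate 4 it was 0.18. The same library was the lowest of the 10 for Ano1 and the highest for Slc4a2 and Cftr.

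Per kilobase, Itpr3 exceeded Itpr2 by 44.9 to 74.7 times in collagen and by 22.8 to 84.1 times in laminin, with 22.8 in laminin replicate 4. The log2 ratio of Itpr2 to Itpr3 in CPM was -5.51 ± 0.29 in collagen and -5.34 ± 0.71 in laminin (SD, n = 5; two-sided exact permutation p = 0.778, adjusted 0.921). Itpr1, the remaining type, stood between them at 4.66 RPKM over the 10 libraries, against 48.6 RPKM for Itpr3 and 0.923 RPKM for Itpr2.

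Slc4a2, the chloride/bicarbonate exchanger AE2 of the apical membrane, had the highest level per kilobase. It stood at 325, 295, 382, 339 and 362 CPM in collagen and at 349, 383, 391, 411 and 386 CPM in laminin. Laminin replicate 1 lay inside the collagen range and the other 4 above it. The log2 difference was 0.17 (SE 0.10), or 1.13-fold with a 95% interval of 0.976 to 1.30 (adjusted p = 0.512 in edgeR). It was 0.10 without collagen replicate 2, the lowest library, and 0.06 (SE 0.07) after the length and GC correction.

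Aqp1, the water channel, showed the largest difference of the 7 tested genes and the largest spread within laminin, relative to its mean, after Itpr2. In collagen it was at 19.0, 14.8, 21.4, 22.8 and 19.4 CPM. In laminin it was at 15.4, 44.3, 56.9, 24.4 and 45.1 CPM. Laminin replicate 1 lay inside the collagen range, replicate 4 just above it, and replicates 2, 3 and 5 well above. The means were 19.5 ± 3.02 and 37.2 ± 16.9 CPM (SD, n = 5 per group), a 1.90-fold difference with a 95% interval of 1.23 to 2.95. The log2 difference of 0.93 (SE 0.29) did not pass over all genes (adjusted p = 0.254 in edgeR). It was 1.13 without laminin replicate 1 (adjusted p = 0.0508 in edgeR) and 0.69 without laminin replicate 3 (adjusted p = 0.598), and adjusted p over all alternatives ran from 0.0508 to 0.775.

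Aqp1 has the shortest transcript of the 7 tested genes (2627 nt), and after the length and GC correction its difference was 0.94 (SE 0.29, adjusted p = 0.146 in edgeR). The sum of hepatocyte markers averaged 108 CPM in collagen and 158 CPM in laminin, with the overlapping ranges given above. Most of it was Hnf4a (79.9 ± 15.3 against 109 ± 27.5 CPM), followed by Alb (18.8 ± 5.01 against 35.5 ± 16.7 CPM). Of the rest, Ttr averaged higher in laminin, Apoa1 and Fgb averaged lower, and the remaining markers were at or near 0. The part of this sum in the Aqp1 difference was not tested. Of 10 other aquaporins only Aqp3 and Aqp5 were tested, with log2 differences of 0.08 (SE 0.23) and 0.09 (SE 0.31), and per kilobase Aqp1 stood at 10.8 RPKM against 5.23 RPKM for Aqp5 and 1.62 RPKM for Aqp3. Aqp8, an aquaporin of hepatobiliary membranes, had 11 counts in all and Aqp4 had 0.

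The start of Aqp1 is shown because it had the largest difference of the tested genes. The RefSeq window (GRCm38.p6, chr6:55336049-55336348, plus strand) has 8 CpG dinucleotides, near the median of 7, and a single GGGCGG at -190, in capitals.
Aqp1: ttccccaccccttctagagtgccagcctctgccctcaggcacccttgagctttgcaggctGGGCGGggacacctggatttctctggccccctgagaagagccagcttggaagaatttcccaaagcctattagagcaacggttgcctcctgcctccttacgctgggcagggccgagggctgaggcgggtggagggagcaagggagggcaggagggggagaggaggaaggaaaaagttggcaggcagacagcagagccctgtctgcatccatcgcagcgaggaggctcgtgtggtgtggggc
None of the other 3 motifs was found in these letters. In the annotation used for lengths, GENCODE M21, the gene starts at 55336432, after the end of this window.

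**Figure D3:**
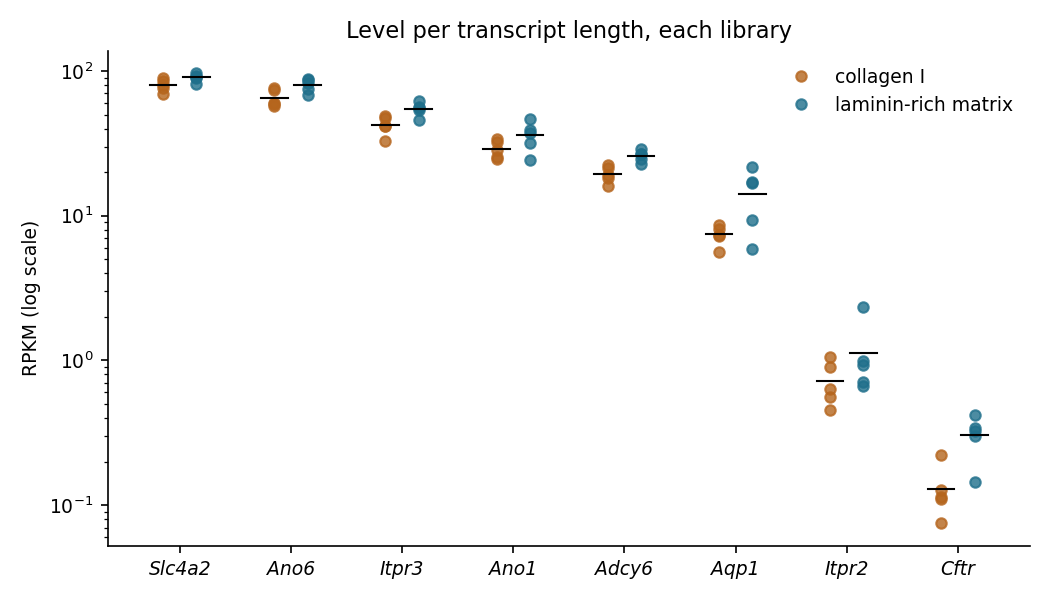
RPKM (CPM per kilobase of the longest annotated transcript, log axis) of the 8 detected genes in every library, with a line at each group mean. The order runs from Slc4a2 to Cftr, and Sctr, at 0 in all libraries, cannot be drawn on a log axis.

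Set in order of level per kilobase over the 10 libraries, the genes ran from Slc4a2 (85.0 RPKM) through Ano6 (72.5), Itpr3 (48.6), Ano1 (32.4), Adcy6 (22.6), Aqp1 (10.8) and Itpr2 (0.923) to Cftr (0.218 RPKM) and Sctr (0). Ranges over the libraries overlapped between neighbours down to Aqp1, although Ano6 exceeded Itpr3, and Adcy6 exceeded Aqp1, within each of the 10 libraries. Aqp1, at 5.63 RPKM or more, did not overlap Itpr2, at 2.35 RPKM or less, and Itpr2 did not overlap Cftr. The order of the highest 3 depends on the length used, since Itpr3 led when all annotated exons were counted, at 48.4 CPM per kilobase against 43.5 for Slc4a2 and 29.1 for Ano6. Positions in GRCm38 (GENCODE M21) are chromosome 5 from 24423837 to 24440950 for Slc4a2, chromosome 15 from 95790843 to 95974751 for Ano6, chromosome 17 from 27057304 to 27122223 for Itpr3, chromosome 7 from 144588549 to 144751974 for Ano1 and chromosome 15 from 98589973 to 98610076 for Adcy6. Aqp1 lies on chromosome 6 from 55336432 to 55348555, Itpr2 on chromosome 6 from 146108299 to 146502223, Cftr on chromosome 6 from 18170687 to 18322768 and Sctr on chromosome 1 from 120006894 to 120063536. All 9 are protein coding. Exons of Slc4a2 overlap those of Fastk (94.1 CPM on average) on the opposite strand, and exons of Cftr, Ano6, Itpr3 and Adcy6 overlap noncoding genes there. Whether the counting used strand is not stated, so these 5 genes are reported as uncertain in that respect.

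**Figure D4:**
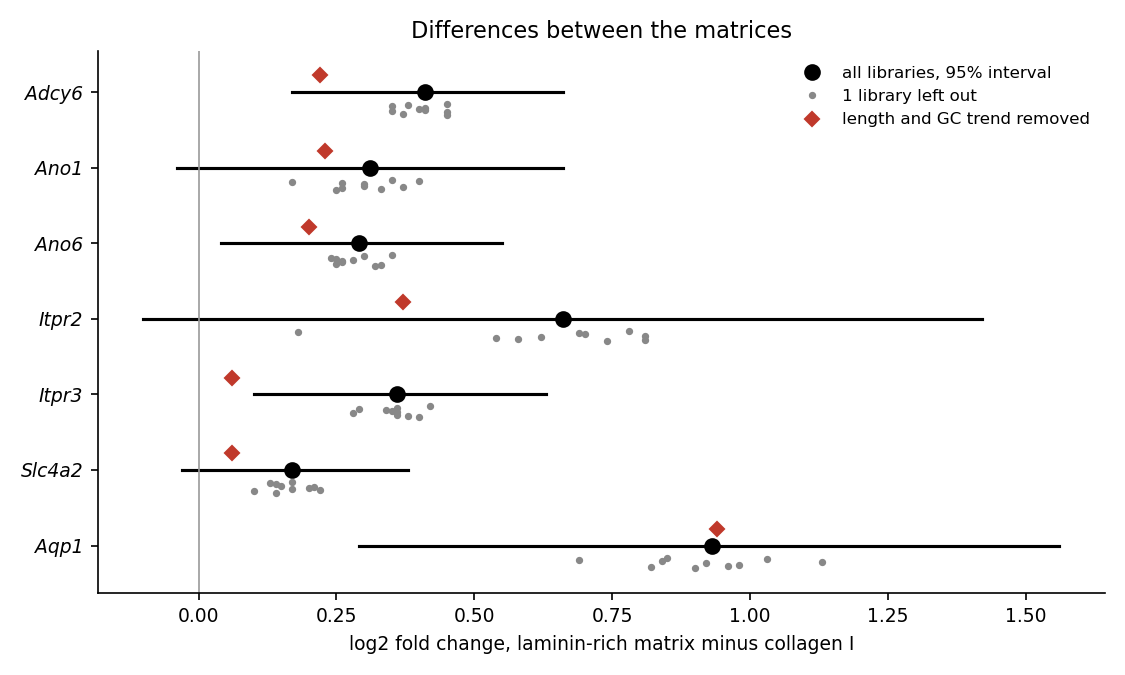
Log2 fold change of the 7 tested genes, laminin-rich matrix minus collagen I. Black points and lines give the value with all libraries and its 95% interval, grey points the 10 values with a single library left out, and red diamonds the value after the length and GC correction. The diamond of Itpr3 lies at 0.06 and that of Aqp1 at 0.94, and the lowest grey point of Itpr2, at 0.18, is the fit without laminin replicate 4.

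The other genes of the pathway were described by 10 lists with 186 entries, of which 111 were tested. In edgeR 0 were called higher and 0 lower. Over all genes tested, edgeR called 0.148%, DESeq2 called 1.94%, 11.6% were under an unadjusted p of 0.05 (6.68% higher in laminin) and 51.7% had a log2 fold change above 0. Of the 111 list genes, 24 were under an unadjusted p of 0.05, DESeq2 called 4 and limma-voom 0, and 71 were above 0, with a median of 0.14 against 0.009 over all genes. On the receptor side, 0 of 6 receptors and G proteins were called and 1 was under an unadjusted 0.05 (11.6% of all genes), Ptger4. It stood at 8.58 ± 0.847 CPM in collagen against 14.8 ± 3.46 in laminin (log2 difference 0.78, SE 0.18, adjusted p = 0.118 in edgeR). Its group ranges did not overlap, as in 1.94% of all genes tested in this direction (3.23% in either direction). The same held for Pde4b, Akap1, Stx3 and Wnk4 of the lists below. For the lists, overlap was looked at only in the 2 genes with the lowest p of each. These genes are therefore not a share of the 111 to set against that of all genes. Gnas, which encodes the stimulatory G protein, gave -0.10 (SE 0.13) at 1270 ± 168 CPM in collagen.

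Downstream of cyclic AMP, 0 of 25 cyclases, kinase subunits, anchoring proteins and phosphodiesterases were called, and 4 were under an unadjusted 0.05, all higher, against 6.68% of all genes. Pde4b, a phosphodiesterase that breaks down cyclic AMP, had the largest difference of the 111 list genes, from 3.85 ± 2.04 to 12.3 ± 3.59 CPM (log2 difference 1.63, SE 0.35, adjusted p = 0.0957 in edgeR). DESeq2 called it at 1.64 (adjusted p = 0.0010), and edgeR called it after the length and GC correction at 1.61 (adjusted p = 0.0272), where 0.964% of all genes were called. Akap1, which anchors protein kinase A at mitochondria, gave 0.39 (SE 0.12, adjusted p = 0.228 in edgeR). Of 13 tested genes for trafficking and scaffolding of CFTR, 0 were called and 4 were under an unadjusted 0.05, 3 of them higher, against 11.6% of all genes in either direction and 6.68% higher. Stx3, an apical membrane syntaxin, stood at 28.5 ± 5.91 and 44.0 ± 4.54 CPM (0.63, SE 0.14, adjusted p = 0.109 in edgeR), and passed in DESeq2 (adjusted p = 0.00918) and after the length and GC correction (0.64, adjusted p = 0.0478 in edgeR). Wnk4, a kinase that regulates ion transporters, gave 0.51 (SE 0.15, adjusted p = 0.225 in edgeR).

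On the calcium side, 0 of 9 purinergic genes and 0 of 23 genes for calcium release and refilling were called, with 1 and 7 under an unadjusted 0.05, against 11.6% of all genes. The ATP receptor gene P2ry2 averaged 3.21 ± 1.24 CPM in collagen against 3.93 ± 2.15 CPM in laminin, and the muscarinic receptor gene Chrm3 had no count. Nt5e, the ectoenzyme that makes adenosine from AMP, gave 0.47 (SE 0.18) and Entpd2, which degrades extracellular ATP, 0.31 (SE 0.16). Atp2a3, a calcium pump of the endoplasmic reticulum, stood at 39.7 ± 1.80 and 57.6 ± 11.9 CPM (0.54, SE 0.14, adjusted p = 0.177 in edgeR) and was called by DESeq2 (adjusted p = 0.0468). Orai2, a store-operated channel subunit, gave 0.40 (SE 0.15).

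Among the transporters, 0 of 12 other bicarbonate and proton transporters were called and 1 was under an unadjusted 0.05 (11.6% of all genes), Slc4a8 (0.28, SE 0.13), followed by Ahcyl2 (0.35, SE 0.16), a relative of the inositol trisphosphate receptor-binding protein IRBIT. The electrogenic sodium bicarbonate cotransporter Slc4a4 averaged 116 ± 36.1 CPM in collagen against 111 ± 15.5 in laminin. The apical exchangers Slc26a3 and Slc26a4 had 2 and 1 counts in all, against 234 for Slc26a6. Of 13 chloride channels of other families 0 were called, and 6 were above 0, with a median of -0.05. Over all genes tested, 51.7% were above 0, with a median of 0.009. An unadjusted p under 0.05 was found for 4 of the 13, all higher (6.68% of all genes). These were led by Clcn2 (0.61, SE 0.17, adjusted p = 0.211 in edgeR) and Ttyh3 (0.30, SE 0.12). Of 6 potassium channel genes, which keep up the driving force for chloride exit, 0 were called and 1 was under an unadjusted 0.05 (11.6% of all genes), Kcnk5 (0.36, SE 0.13), followed by Kcnk6 (0.39, SE 0.24).

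**Figure D5:**
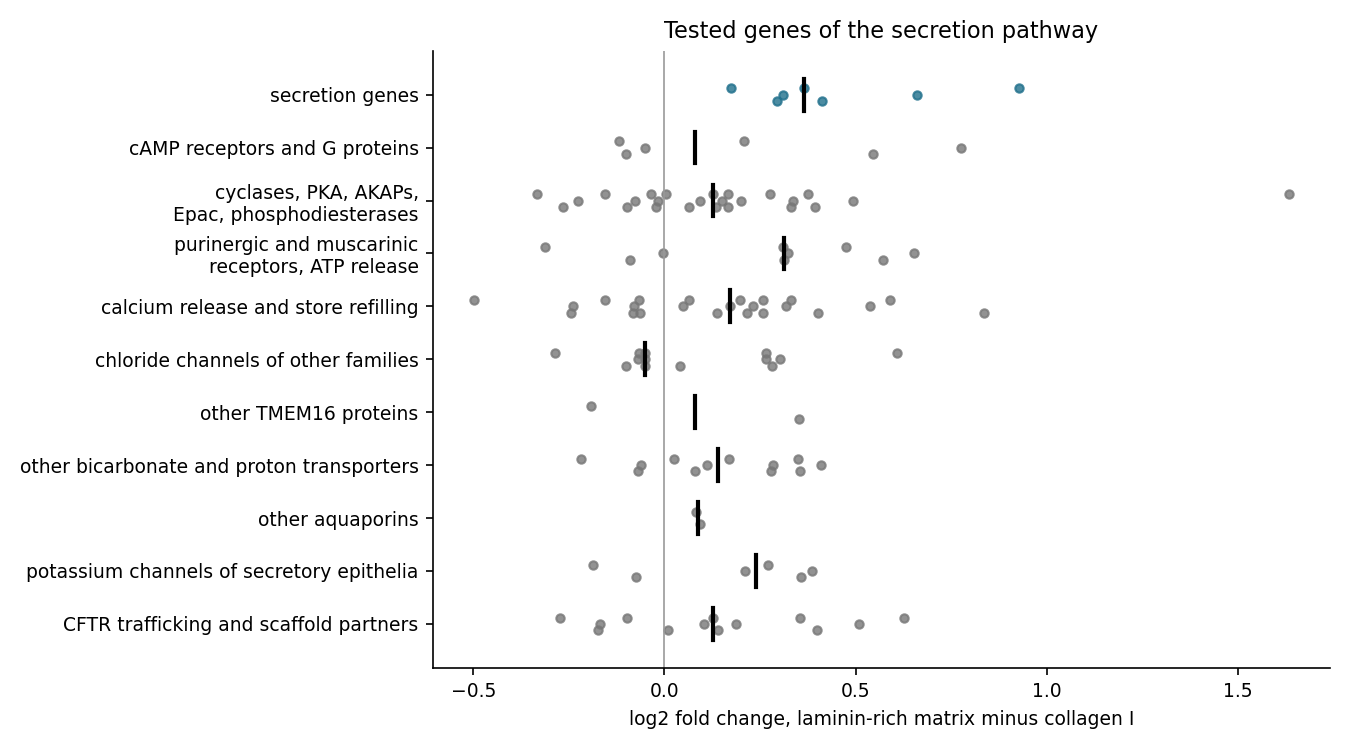
Log2 fold change (laminin-rich matrix minus collagen I) of every tested gene among the 9 secretion genes, in blue, and in the 10 pathway lists, in grey, with a black bar at each median. The 7 secretion genes lie above 0, and the point farthest to the right, at 1.63, is Pde4b.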

How the data were processed

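RNA was sequenced after poly(A) selection with a stranded kit, from 30 ng of input per the labels' protocols. The authors deposited raw read counts, whole numbers with a row for each gene symbol and a column for each library. GRCm38 (mm10) and DESeq2 are named per the submitters' processing notes, while the alignment and counting tools, the strand setting and the gene annotation were not given in the sources used here. Totals of 4424725 to 8129979 counts set the precision.

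Genes passing filterByExpr (10789 of 18407) were scaled by TMM and compared with edgeR 4.0.16 in R 4.3.3 (quasi-likelihood F test, two-sided, group as the only term, SE as the fold change over the root of F), with Benjamini-Hochberg adjustment over all genes tested and a threshold of 0.05. Ratios used log2 CPM with a prior count of 2. Transcript lengths came from GENCODE M21 (99.9% of tested genes) and promoter windows from RefSeq (7 of 9 genes). Fits were run on simulated counts drawn independently for each library, and the outcome is not reported here. The simulation held no trend with length or GC content and no code letters, so it does not cover those features.

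Replicate numbers are not stated to mark a shared batch, so they were not used as pairs in the main fit. Same-numbered libraries correlated at -0.327 to 0.483 in their deviations from the group means. These deviations also carry the trends of each library, so they cannot settle whether a number marks a batch. Named genes were the 9, any called gene and the 2 with the lowest p of each list, and the 3 nearest Adcy6, which had the lowest p. A gene that this rule selects is not reported here. Other list genes were named after their values were seen. The genes and lists were chosen with earlier results of these data known. Slc9a3r1, Slc9a3r2 and Irag2 are not analysed here. Alternatives were DESeq2 1.42.0, limma-voom (limma 3.58.1), other scalings and filters, the replicate block, a per-library spline trend on length and GC content (5 degrees of freedom each) as an offset, and leaving out each library or each code letter. A difference between matrices that itself tracks length or GC content is taken out by this offset as well.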

Additional observations from a re-analysis of the deposited data

How the results depend on the processing

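Each of the 7 tested genes was refitted under 22 alternatives, giving 154 values. Of these, 150 kept their direction and their side of the threshold, 3 newly passed and 1 reversed. The reversed value was Ano1, at -0.07 without the laminin libraries of letter E. Adcy6 passed in DESeq2, and Adcy6 (0.53, adjusted p = 0.0247) and Itpr3 (0.53, adjusted p = 0.0345) passed in edgeR without the 3 collagen libraries of letter B, a fit that called 19.3% of all genes. The number of the 9 genes called higher was thus 1 in DESeq2, 2 without letter B and 0 in the other alternatives. Of the pathway list genes, edgeR called 0 in either direction, and the number called higher was 4 in DESeq2, 2 after the length and GC correction (Pde4b and Stx3), 24 without letter B and 0 to 1 without a single library (Ptger4 at 0.89, adjusted p = 0.0339, without laminin replicate 1, and Atp2a3 at 0.64, adjusted p = 0.0334, without laminin replicate 4). The number called lower was 1 after this correction (Lrrc8c, -0.44, adjusted p = 0.0442) and 2 without letter B. Over the whole table edgeR called 15 genes higher and 1 lower. These counts were 149 and 60 in DESeq2, 26 and 3 without a filter, 16 and 2 at 1 CPM in 5 libraries, 78 and 26 after this correction, 1207 and 873 without letter B, 5 and 0 without letter D, 0 and 0 without letter E (512 at an unadjusted p under 0.05) and 3 and 2 without letter F. Without a single library they ranged from 0 to 48 higher and from 0 to 10 lower, and edgeR made 0 calls when the library left out was collagen replicate 3 (1152 genes at an unadjusted p under 0.05), collagen replicate 5 (924 genes) or laminin replicate 2 (971 genes). The total was 2 when collagen replicate 2 was dropped, 5 for laminin replicate 3 and also for laminin replicate 5, 35 for laminin replicate 4 and 56 for laminin replicate 1. The cause of these changes was not tested.

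With the replicate number as a block edgeR called 0 genes higher and 0 lower over the whole table (1049 at an unadjusted p under 0.05) and 0 of the 9. Of the 5 collagen libraries, 1 correlated best with the laminin library of its own number, which does not settle whether a number marks a shared batch. The paired differences of the ratios under the block were 0.16 for Itpr2 to Itpr3 (exact sign-flip p = 0.812) and 0.01 for Ano6 to Ano1 (exact sign-flip p = 0.938, where the smallest p that 5 pairs can give is 0.0625). Without a single library the difference in the Itpr2 to Itpr3 ratio ranged from -0.14 (without laminin replicate 4) to 0.32. That in the Ano6 to Ano1 ratio ranged from -0.10 (without laminin replicate 4) to 0.10. Leaving out collagen replicate 4 gave -0.07, and leaving out collagen replicate 5 gave -0.01. Sctr, with 0 counts in every library, and Cftr, with 3 to 18 counts per library, fell below the filter. Whether greater depth would detect Sctr was not tested.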
